A study of Mus musculus with 90 samples.

Results

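A set of 10 genes whose products coat or break down the lipid droplets of liver cells were followed through 5 RNA-seq experiments on mice kept on night-restricted feeding (NRF). These were taken by symbol from the 24312 gene symbols of the expression table, and where several RefSeq IDs shared a symbol the ID with the highest mean was used. They comprise the perilipins Plin2, Plin4 and Plin5, the lipases Pnpla2 (adipose triglyceride lipase), Pnpla3, Lipe (hormone-sensitive lipase) and Mgll (monoacylglycerol lipase), the co-activator Abhd5, and the lipase inhibitors G0s2 and Hilpda. Peaks of the glucocorticoid receptor (GR) and of FOXO1, and DNase hypersensitive sites (DHSs), were then looked up within 50 kb of each gene start.

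Hepatocytes store fatty acids as triglyceride in droplets wrapped by perilipins. Pnpla2, switched on by Abhd5 and held back by G0s2 and Hilpda, removes the first fatty acid, Lipe takes the next from diacylglycerol, and Mgll splits the remaining monoacylglycerol. In liver this turnover is known to follow fasting and feeding, with glucocorticoids and insulin among the hormones of the unfed and the fed state.

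All mice went through NRF, with food in the dark only for 4 days before sampling. In the NRF experiment and the injected experiment they were male C57BL/6N of 10 weeks. In the former livers were taken at zeitgeber time ZT10 unfed, at ZT14 unfed and at ZT14 after food from ZT12, with 2 mice each. In the injected experiment 4 unfed mice received vehicle (PBS), and groups of 4 fed mice received vehicle, the glucocorticoid dexamethasone (dex, 1 mg/kg), the insulin receptor antagonist S961, or both, shortly before ZT12, with livers taken at ZT14. L-GRKO mice were adult GR fl/fl animals on C57BL/6N, given an adeno-associated virus with Cre under the hepatocyte promoter Tbg, and their controls the same virus type with GFP, so that both groups carried floxed Nr3c1 and a virus (4 each, ZT14 unfed). L-IRSdKO mice lacked Irs1 and Irs2 through albumin promoter Cre, and both they and their floxed controls were injected with dex and fed before sampling at ZT14 (4 each, C57BL/6J background, 10 weeks old). In the diet experiment male mice on chow (lean) or made obese by 10 weeks of high-fat diet from 5 weeks of age were sampled at ZT14 unfed or fed (3 mice each). Each of the 54 RNA libraries is given as 1 mouse, so the spread is between mice.

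Steps of the low values put the shallowest library of an experiment at 0.514 to 0.818 of the deepest. The study's supplement lists read numbers for the L-IRSdKO and diet libraries and most L-GRKO libraries. These follow the order of the steps in the L-IRSdKO experiment but not in the L-GRKO and diet experiments, so the estimate does not hold there. The L-IRSdKO libraries had fewer reads than the listed L-GRKO and diet libraries. Read numbers of the NRF and injected libraries were not at hand. The targeted genes followed the labels for Nr3c1 (12.8 to 16.2 RPKM in GFP controls and 3.93 to 5.35 in L-GRKO livers) and for Irs1 (2.21 to 4.73 in floxed controls and 0.149 to 0.321 in L-IRSdKO livers), whereas Irs2 overlapped (0.614 to 5.61 and 0.272 to 1.00). The summed level of 5 hepatocyte genes (Alb, Ttr, Apoa1, Serpina1a, Cyp2e1) was 29007 to 75453 RPKM in the other experiments but 2013 to 2576 in the 8 L-IRSdKO experiment libraries, where the 20 highest genes held 3.22 to 3.73% of the summed RPKM, against 24 to 35.6% elsewhere. Levels are therefore compared only within an experiment. ZT14-unfed replicate 2 of the NRF experiment held 172 RPKM of 4 striated muscle genes (Acta1, Ckm, Myh4, Tnnt3), against 0.592 in its companion. In bulk liver, fewer cells of a type and less RNA per cell cannot be told apart.

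Plin2, the perilipin that coats most hepatocyte droplets, G0s2 and Mgll were the most abundant members in the majority of groups, and Pnpla3 was the lowest in all 16. In fed vehicle mice the mean levels ran from Plin2 (85.8 RPKM), G0s2 (78.8) and Mgll (71.4), whose mice overlapped, to Pnpla2 (40.7) and Plin5 (32.4), which overlapped each other and G0s2 but not Mgll. Abhd5 (11.8), Lipe (5.06) and Plin4 (3.22) came next, each overlapping its neighbour, and below them Hilpda (1.51) and Pnpla3 (0.138) did not overlap the gene above. In dex-treated mice the order was different, with Mgll (60.6) and Plin5 (55.8) first, then Pnpla2 (45.5) and Plin2 (44.4). Pnpla3 averaged 0.195 RPKM over all libraries, below the minimum of 0.5 RPKM for testing, so 9 of the 10 members were tested. Its highest value was the 1.13 RPKM of 1 lean fed mouse, whose companions were at 0.346 and 0.333, against 0.219, 0.046 and 0.076 in the lean unfed mice.

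**Figure D1:**
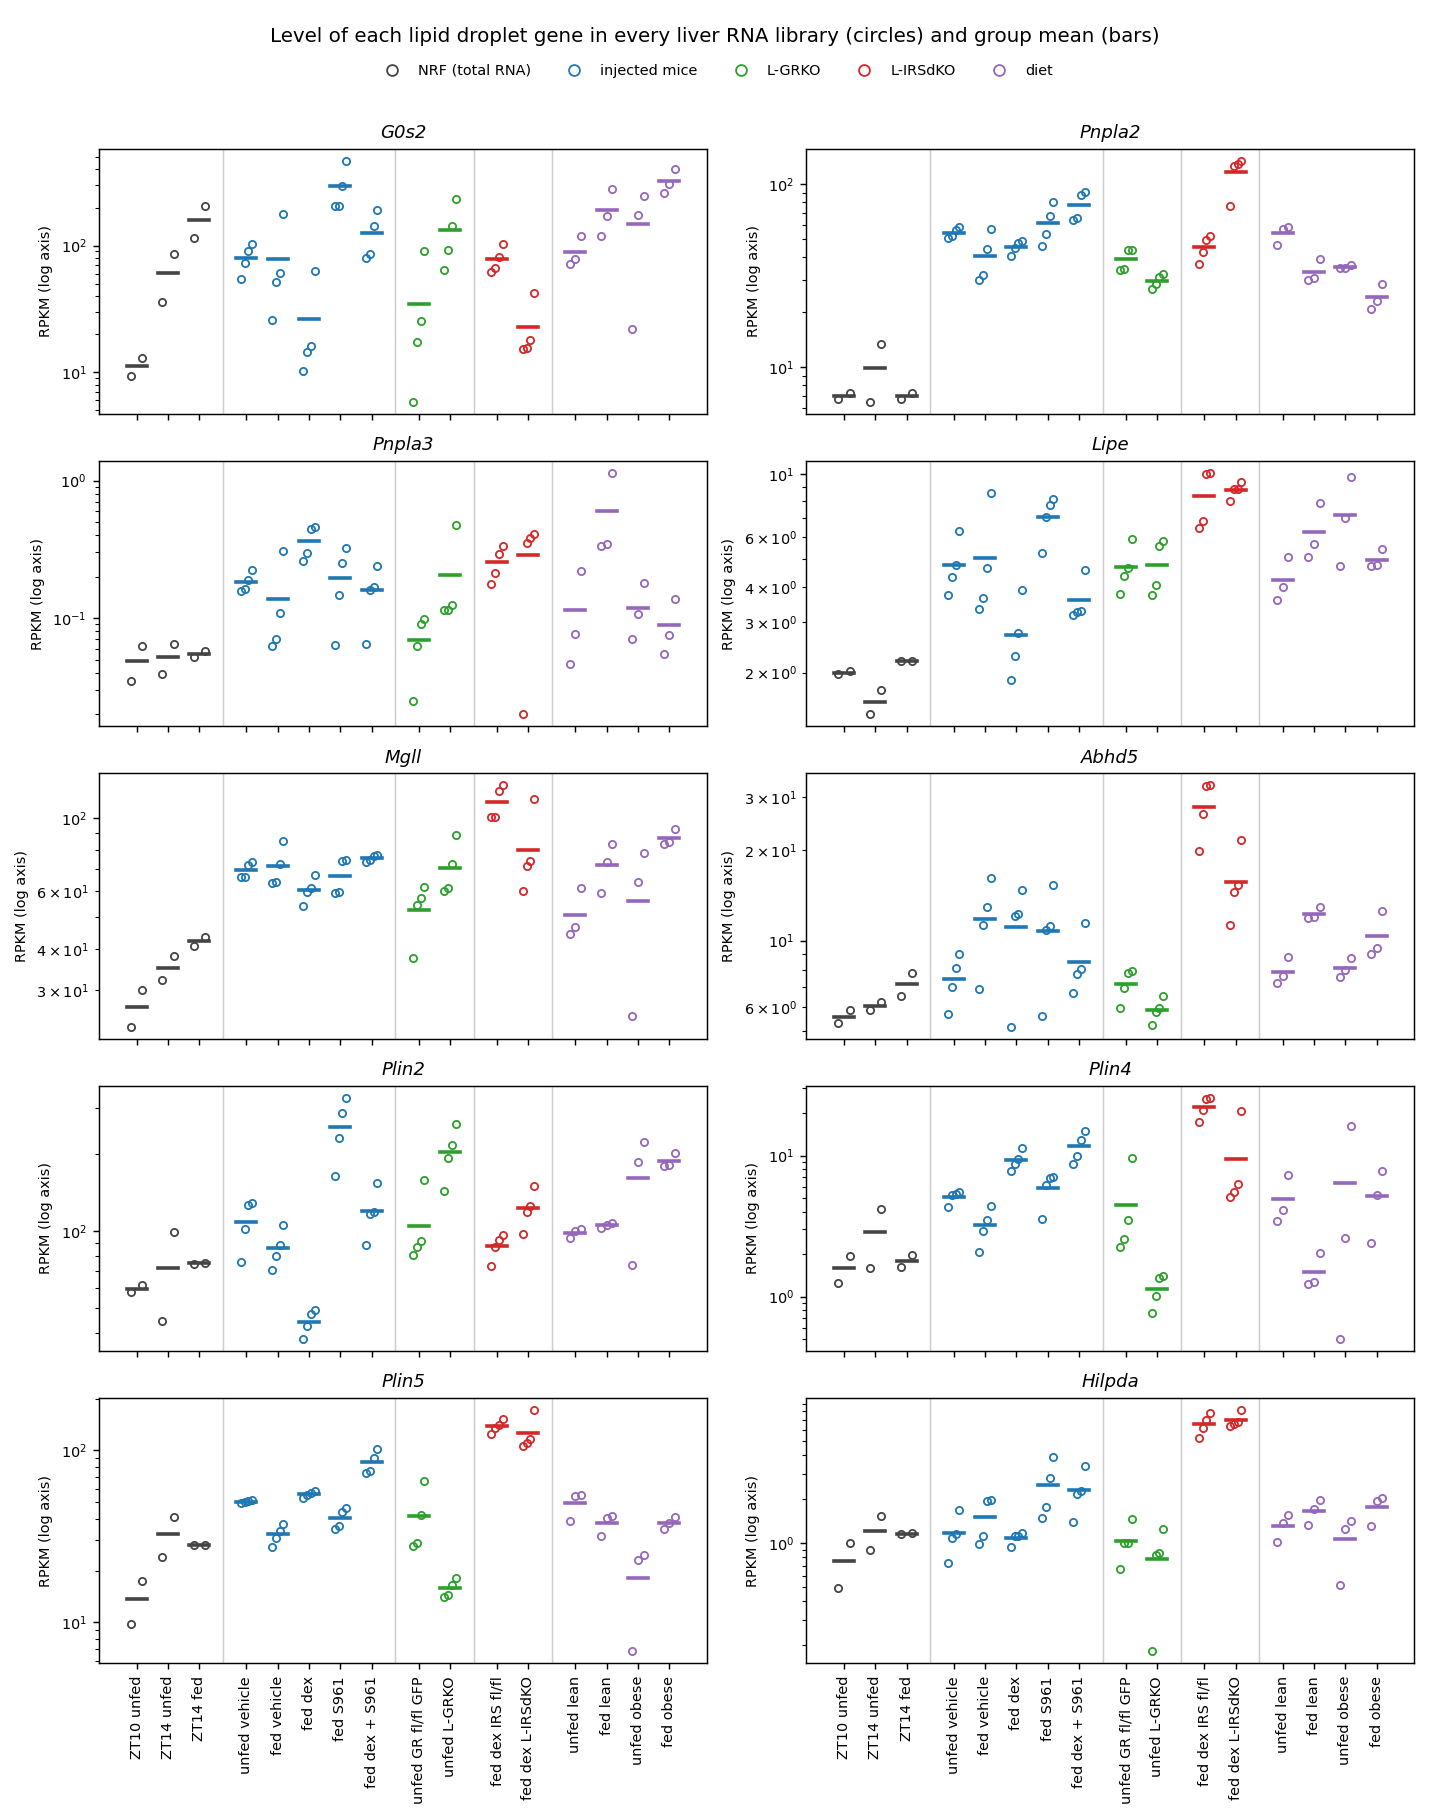
Level of each member in RPKM (log axis, own range per panel) in every liver RNA library (circles) and the group mean (bars), with the 5 experiments in separate colours and a value listed at 0 (Pnpla3 in 1 L-IRSdKO mouse) drawn at 0.02. G0s2 spans the widest range, from 5.84 RPKM in a GFP control mouse to 469 in an S961 mouse, and single libraries stand apart in the L-IRSdKO and unfed obese groups.

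GR peaks lay within 50 kb of 9 of the 10 genes, all but Lipe, and FOXO1 peaks near 7 of them (G0s2, Pnpla2, Pnpla3, Mgll, Plin2, Plin4 and Plin5). In that window 47.3% of the 10954 genes averaging 0.5 RPKM or more held a GR peak and 50.3% a FOXO1 peak. All 10 members had a DHS, as did 99.7% of those genes. The gene starts are 5′ ends in the GENCODE M1 annotation of mm9, and the GR and FOXO1 peaks were called by the authors in unfed livers. G0s2 had the most, with 9 GR peaks, 4 FOXO1 peaks and 19 DHSs, but only the GR peak 5296 bases upstream had G0s2 as its nearest gene start, the others and all 4 FOXO1 peaks lying nearer to Lamb3, Hsd11b1 or Traf3ip3. Plin4 and Plin5 are neighbours on chromosome 17 and share peaks, so that the members together had 28 distinct GR peaks and 13 distinct FOXO1 peaks.

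The 6 peaks are shown as examples, those of Plin4, Pnpla2, Plin2, G0s2 and Mgll because GR and FOXO1 peaks overlap there, and that of Hilpda because it holds the response element core at 2 places. Further overlapping pairs near G0s2, Pnpla2, Pnpla3 and Plin5 are not shown, and none of their GR peaks holds the core. Capitals mark ACANNNTGT, the core of the glucocorticoid response element (read as its own reverse complement, so counted once), in GR peaks, and TGTTTAC, a forkhead site searched on both strands, in the FOXO1 peak. All are 180 bases of mm9, written 5′ to 3′ on the strand of the named gene. The Plin4 peak at chr17:56248207-56248386 (minus strand) lies 929 bases into Plin4, in an intron, and 8723 bases downstream of the Plin5 start. The Pnpla2 peak at chr7:148642049-148642228 (plus strand) lies in an intron, 1041 bases from the start. The Plin2 peak at chr4:86336211-86336390 (minus strand) is intergenic, 20336 bases upstream. The Hilpda peak at chr6:29214359-29214538 (plus strand) is intergenic, 8040 bases upstream. The G0s2 peak at chr1:195088515-195088694 (minus strand) is 10778 bases downstream of the start, in an intron of Hsd11b1, whose start is nearer. The Mgll peak at chr6:88695019-88695198 (plus strand) is in a Mgll intron, 20702 bases from the start.
Plin4 GR peak: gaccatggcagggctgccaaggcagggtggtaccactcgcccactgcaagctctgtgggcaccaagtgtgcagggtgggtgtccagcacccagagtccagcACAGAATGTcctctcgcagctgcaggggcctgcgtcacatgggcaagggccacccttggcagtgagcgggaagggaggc
Pnpla2 FOXO1 peak: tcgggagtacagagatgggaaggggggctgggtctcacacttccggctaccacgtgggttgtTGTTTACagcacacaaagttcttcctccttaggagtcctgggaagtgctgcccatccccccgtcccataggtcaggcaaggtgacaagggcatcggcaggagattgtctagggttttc
Plin2 GR peak: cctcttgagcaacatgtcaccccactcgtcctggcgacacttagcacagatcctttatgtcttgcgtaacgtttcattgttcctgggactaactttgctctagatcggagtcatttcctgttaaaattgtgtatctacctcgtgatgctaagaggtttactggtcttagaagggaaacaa
Hilpda GR peak: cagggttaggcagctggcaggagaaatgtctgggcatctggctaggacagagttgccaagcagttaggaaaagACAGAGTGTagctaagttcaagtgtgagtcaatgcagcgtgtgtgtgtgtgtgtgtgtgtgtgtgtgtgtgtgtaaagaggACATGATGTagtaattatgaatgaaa
G0s2 GR peak: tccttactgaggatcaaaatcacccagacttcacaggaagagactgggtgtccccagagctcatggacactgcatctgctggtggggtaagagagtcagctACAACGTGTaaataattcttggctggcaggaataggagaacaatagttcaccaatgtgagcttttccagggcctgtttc
Mgll GR peak: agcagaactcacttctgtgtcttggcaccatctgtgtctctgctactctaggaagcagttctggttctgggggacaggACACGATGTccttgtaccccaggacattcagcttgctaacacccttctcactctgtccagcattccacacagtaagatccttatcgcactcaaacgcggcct

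The response element core occurred once in the Plin4, G0s2 and Mgll peaks, at 2 places in the Hilpda peak and not in the Plin2 peak. Among the members' 28 GR peaks 6 held the core, against 20.3% of all 10446 GR peaks. Among their 13 FOXO1 peaks 3 held TGTTTAC, against 18.8% of all 8546. The repeat of AGGNCA spaced by 1 base (DR1), searched on both strands, was in none of them, against 1.02% of all GR and 1.14% of all FOXO1 peaks. The Plin4, Plin2, G0s2 and Mgll GR peaks overlapped a FOXO1 peak and a DHS. The Pnpla2 FOXO1 peak overlapped a GR peak and no DHS, and the Hilpda GR peak a DHS only. Over all GR peaks 48.8% overlapped a FOXO1 peak and 81.6% a DHS. A match of letters describes the sequence and does not show binding.

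**Figure D2:**
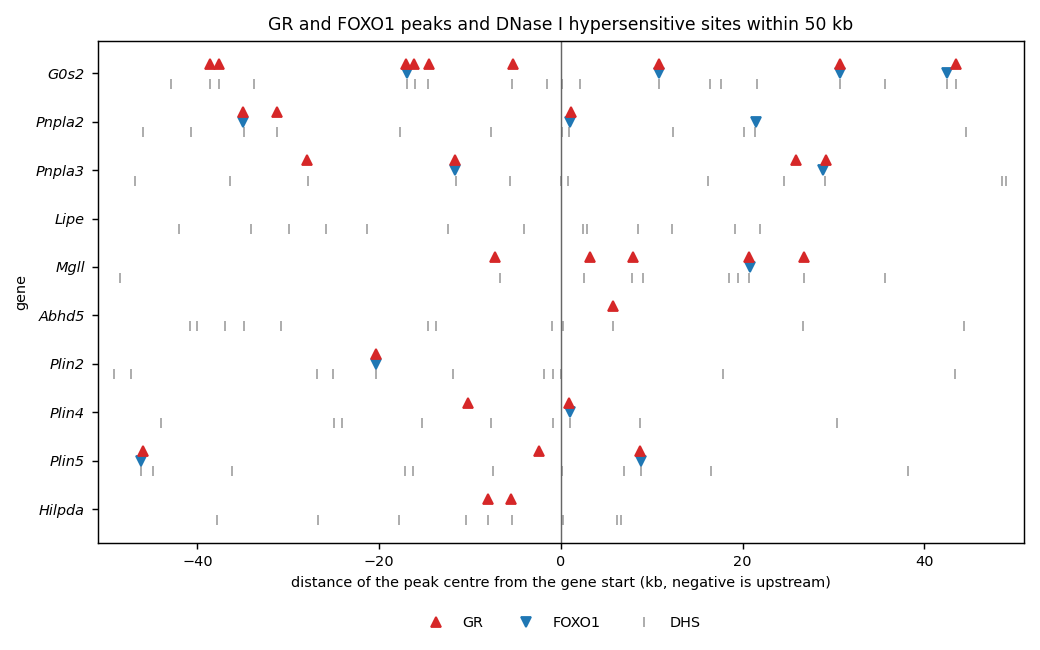
Position of GR peaks, FOXO1 peaks and DHSs relative to the start of each member (x axis, distance of the peak centre from the gene start in kb, negative is upstream). Lipe has DHSs only, G0s2 has GR peaks on both sides, and the GR and FOXO1 peaks inside Plin4 and Pnpla2 lie about on top of each other.

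The NRF experiment asked what changed in liver from ZT10 to ZT14 and what food added. G0s2, the inhibitor of Pnpla2, was 12.9 and 9.38 RPKM at ZT10, 36.0 and 86.5 at ZT14 unfed, and 114 and 207 at ZT14 fed. The 3 groups did not overlap. Plin5, the perilipin of oxidative tissues that tethers droplets to mitochondria, was 17.5 and 9.81 at ZT10, 24.1 and 41.2 at ZT14 unfed and 28.1 and 28.2 at ZT14 fed, with both ZT14 groups above ZT10. None of the 9 tested members passed the limma test at an adjusted p of 0.01 in either comparison, where 1.16% of 10907 genes passed between ZT10 and ZT14 unfed and 0.99% with food. At an unadjusted p under 0.05 there were 3 members (G0s2, Plin5, Mgll) in the first, where 26.4% of all genes were, and 2 (G0s2, Lipe) in the second, where 27.7% were.

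G0s2 differed from ZT10 to ZT14 unfed by a log2 fold change of 2.29 (SE 0.42, limma adjusted p = 0.0228) and with food by 1.45 (SE 0.42, adjusted p = 0.0821). Fold changes throughout are on the log2(RPKM + 0.5) scale, which shrinks those of low genes such as Hilpda. Plin5 differed by 1.23 from ZT10 to ZT14 unfed (adjusted p = 0.0489). The median of all genes was −0.10 and 0.12 in these comparisons, so that relative to it G0s2 stood at 2.39 and 1.34. ZT14-unfed replicate 2, which held the muscle RNA, also had the higher G0s2, Plin2, Plin4, Plin5, Pnpla2, Lipe and Hilpda of its pair. The part of that RNA in these values was not tested. Without it the G0s2 values were 1.66 (adjusted p = 0.0412) and 2.08 (adjusted p = 0.0239), that of Plin5 from ZT10 was 0.85, and that of Plin2 with food was 0.75 (adjusted p = 0.0237) instead of 0.17.

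Food in the vehicle-injected mice lowered Plin5. Its level was 51.5, 49.1, 50.1 and 50.9 RPKM in the unfed and 34.2, 27.3, 37.4 and 30.8 in the fed mice. Every fed mouse lay below every unfed mouse, and the log2 fold change was −0.64 (SE 0.12, limma adjusted p = 0.00712). Plin5 was the 1 member called at 0.05, the threshold for this experiment, where 3.13% of 11251 genes were called.

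Plin4, a perilipin of small droplets, and Pnpla2 were also at lower values in fed mice without passing (−0.63, adjusted p = 0.111, and −0.46, adjusted p = 0.188), with overlapping groups. G0s2 showed no such step here, at 54.2, 73.2, 91.4 and 102 RPKM in unfed and 51.5, 26.1, 61.0 and 177 in fed mice (−0.33, SE 0.53). Replicate 4 of all 5 groups came from another library series in the labels than replicates 1 to 3. Within the latter, 3 members and 6.38% of all genes were called, with Plin5 at −0.61 (adjusted p = 0.0189), Pnpla2 at −0.67 (0.0313) and Abhd5 at 0.70 (0.031). The median of all genes stood at 0.10, and relative to it Plin5 stood at −0.74. The 7 Kupffer cell and macrophage genes summed to 55.4 to 68.6 RPKM in unfed and 79.0 to 115 in fed vehicle mice, and their part in the Plin5 value was not tested.

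Dex given before the meal raised the perilipins Plin4 and Plin5 and lowered the perilipin Plin2. Plin4 was 3.47, 2.08, 2.93 and 4.40 RPKM with vehicle and 8.79, 9.40, 7.74 and 11.4 with dex. Plin5 was 55.3, 58.0, 53.0 and 56.8 RPKM with dex, Plin2 was 79.8, 70.2, 105 and 88.2 with vehicle and 47.6, 37.9, 42.7 and 49.3 with dex. In none of the 3 genes did the groups overlap.

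The log2 fold changes by dex were 1.43 for Plin4 (SE 0.21), 0.78 for Plin5 (SE 0.12) and −0.94 for Plin2 (SE 0.21), with limma adjusted p = 0.00102, 0.00102 and 0.0182. These 3 of 9 members were called, against 3.19% of genes. The Plin5 level with dex in fed mice lay just above that of the unfed vehicle mice. G0s2 was 10.3, 14.5, 16.2 and 63.5 with dex, a log2 fold change of −1.61 (SE 0.53, adjusted p = 0.0989) with overlap through replicate 4. Lipe stood at −0.74 (adjusted p = 0.0905). Within replicates 1 to 3, where 7.28% of genes were called, both were called (G0s2 −1.66, adjusted p = 0.00601, and Lipe −0.64, adjusted p = 0.0248), beside Plin4 at 1.48, Plin5 at 0.75 and Plin2 at −0.97. The call of Plin2 was lost under median-ratio scaling (adjusted p = 0.0515) and without vehicle replicate 3 or dex replicate 2.

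Blocking the insulin receptor with S961 raised Plin2 and G0s2 in fed mice. Plin2 reached 163, 330, 231 and 287 RPKM and G0s2 206, 298, 206 and 469, each above all vehicle mice. The log2 fold changes were 1.52 for Plin2 (SE 0.21, limma adjusted p = 0.00104) and 2.16 for G0s2 (SE 0.53, adjusted p = 0.0399), and 2 of 9 members were called against 1.9% of genes. Within replicates 1 to 3 the values were 1.46 (adjusted p = 0.00751) and 2.41 (adjusted p = 0.00199), and Lipe was called as well (0.71, adjusted p = 0.0337), where 1.98% of genes were. Plin4 at 0.79 (adjusted p = 0.0636) and Pnpla2 at 0.61 (adjusted p = 0.116) did not pass. With a term for the library series Plin4 was called by limma (adjusted p = 0.0205), where 4.25% of all genes were. With the replicate block limma called Plin4 as well (adjusted p = 0.0263), and the share of all genes there is not given here. The G0s2 call was lost when 1 of 6 of the 8 mice was left out, with adjusted p up to 0.154, and in the fit of the compared groups alone (adjusted p = 0.159).

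With dex and S961 together Plin5, Plin4 and Pnpla2 rose. Plin5 was 73.4, 102, 76.3 and 89.7 RPKM, above every other mouse of the experiment. Plin4 was 10.0, 14.9, 8.75 and 13.0, overlapping the dex mice and above the vehicle mice. Pnpla2, the lipase of the first step, was 64.2, 91.4, 65.2 and 87.8, against 31.8, 29.8, 44.2 and 56.8 with vehicle, and the groups did not overlap. A library of the group given both agents held 9.71 RPKM of 4 exocrine pancreas genes (group median 0.338). The part of that RNA in these values was not tested.

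The log2 fold changes with both agents against vehicle were 1.38 for Plin5 (SE 0.12, limma adjusted p = 1.33e-06), 1.72 for Plin4 (SE 0.21, adjusted p = 6.89e-05) and 0.95 for Pnpla2 (SE 0.19, adjusted p = 0.00364). These 3 members were called, where 10.6% of genes were. The median of all genes was −0.14, and relative to it the 3 genes stood at 1.52, 1.86 and 1.08. Plin2 at 88.1, 153, 116 and 118 RPKM lay between the dex and the S961 mice (0.46 against vehicle, adjusted p = 0.178). Within replicates 1 to 3 the 3 calls stood at 1.33, 1.80 and 1.05, and G0s2 was called in addition (1.18, adjusted p = 0.0251; 11.6% of genes), against 0.92 over all mice (adjusted p = 0.292).

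S961 and dex were also set against each other directly. G0s2 was higher with S961 by a log2 fold change of 3.77 (SE 0.53, limma adjusted p = 0.000139), a fold of 13.6, and Plin2 by 2.46 (SE 0.21, adjusted p = 1.92e-06). Lipe (1.25, adjusted p = 0.00214) and Hilpda (0.85, adjusted p = 0.0471) were higher with S961 as well, and Plin5 was lower (−0.47, adjusted p = 0.0153). In all 5 the groups did not overlap, and 5 of 9 members were called against 7.47% of genes. Lipe measured 7.74, 7.02, 5.27 and 8.14 RPKM with S961 and 2.29, 1.89, 2.77 and 3.90 with dex. Hilpda was low in both, at 1.78, 2.82, 3.91 and 1.5 with S961 and 1.13, 0.941, 1.13 and 1.17 with dex, and its call was lost without any 1 of 6 of the 8 mice. Within replicates 1 to 3 the 5 calls held, where 10.2% of genes were called, with G0s2 at 4.07, Plin2 at 2.43, Lipe at 1.35, Hilpda at 1.04 and Plin5 at −0.53.

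For the dex effect in the presence against the absence of S961, no gene was called by limma (0% of 11251, with 513 at an unadjusted p under 0.05), hence no member. The nearest was Mgll, at an interaction of 0.41 (SE 0.15, unadjusted p = 0.012 and adjusted p = 1.00). Within replicates 1 to 3 the Mgll interaction was 0.53 (adjusted p = 0.343). The 3 comparisons with vehicle share the fed vehicle mice, so their values side by side are not independent. The 7 Kupffer cell and macrophage genes summed to 79.0 to 115 RPKM in the fed vehicle mice and 47.5 to 82.8 in the 3 treated groups, and their part in these results was not tested.

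**Figure D3:**
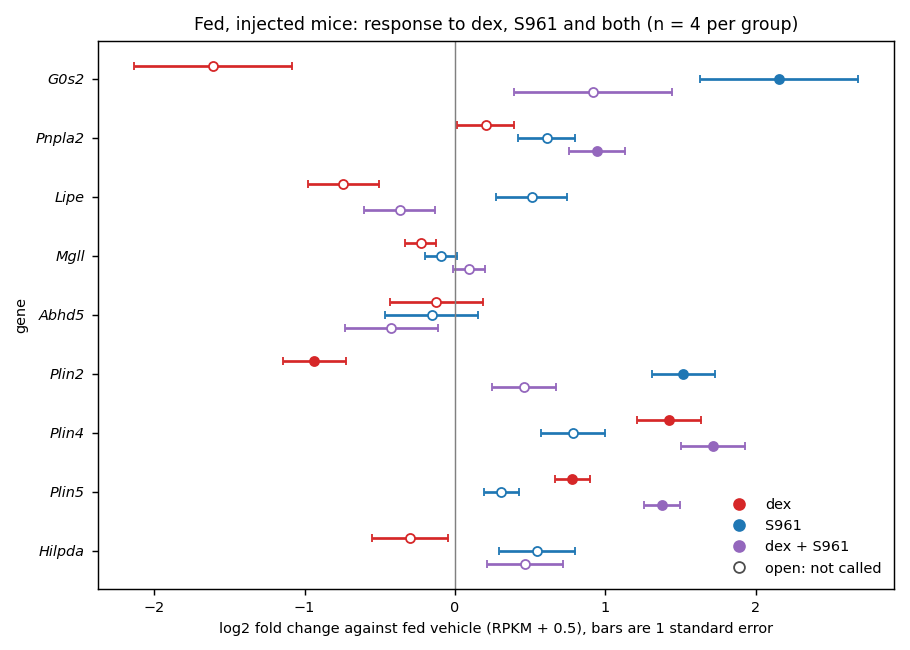
Log2 fold change against fed vehicle mice (x axis, log2(RPKM + 0.5) scale, bars are 1 SE, open circles did not pass the test) of the 9 tested members in fed mice given dex, S961 or both (4 mice each). Plin4 and Plin5 lie to the right with dex and with both, and G0s2 and Plin2 lie left with dex and right with S961.

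Loss of GR in hepatocytes of unfed mice lowered Plin5 and Plin4 and raised Plin2. Plin5 was 66.5, 29.1, 42.2 and 28.0 RPKM in GFP controls and 14.4, 18.2, 14.1 and 16.4 in L-GRKO mice. Plin4 was 9.57, 2.24, 3.49 and 2.57 in controls and 0.769, 1.01, 1.39 and 1.35 in L-GRKO mice. In both genes all knockout mice lay below all controls.

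Plin2 was 158, 91.4, 80.6 and 86.7 RPKM in controls and 192, 215, 260 and 143 in L-GRKO mice, overlapping through control replicate 1. The log2 fold changes were −1.28 for Plin5 (SE 0.24, limma adjusted p = 0.00963), −1.41 for Plin4 (SE 0.35, adjusted p = 0.0366) and 0.98 for Plin2 (SE 0.22, adjusted p = 0.0267). These 3 of 9 members were called, against 6.68% of 11649 genes. Plin2 was not called under median-ratio scaling (adjusted p = 0.065) or without any 1 of 6 of the 8 mice, and Plin4 not with the replicate block (adjusted p = 0.0559) or without any 1 of 5. The Plin4 exons share bases with those of Hdgfl2 on the opposite strand, and the strand setting of the counting is not given in the sources used here.

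G0s2 was 90.7, 17.2, 25.4 and 5.84 RPKM in controls and 143, 92.5, 235 and 64.5 in L-GRKO mice, which overlapped only through control replicate 1. Its log2 fold change of 2.40 (SE 0.67) did not pass (adjusted p = 0.0587). Control replicate 1 was the highest of its group in G0s2, Plin2, Plin4, Plin5, Pnpla2, Mgll and Hilpda. Without it 4 members, and 4.83% of all genes, were called by limma, G0s2 at 3.07 (adjusted p = 0.0074), Plin2 at 1.20, Plin4 at −1.003 and Plin5 at −1.03. Pnpla2 was 43.9, 34.1, 34.3 and 43.7 in controls and 31.1, 32.4, 28.7 and 26.7 in L-GRKO mice, without overlap (−0.38, adjusted p = 0.0782). It was called under median-ratio scaling (−0.47, adjusted p = 0.0187).

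In dex-treated fed mice the loss of Irs1 and Irs2 raised Pnpla2 and lowered G0s2, its inhibitor, and Abhd5, its co-activator. Pnpla2 was 52.1, 36.7, 49.8 and 42.7 RPKM in floxed controls and 76.6, 125, 135 and 128 in L-IRSdKO mice. G0s2 was 81.9, 61.5, 66.5 and 103 in controls and 42.2, 15.2, 15.6 and 18.0 in L-IRSdKO mice. Neither gene overlapped between genotypes.

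The log2 fold changes were 1.33 for Pnpla2 (SE 0.19, limma adjusted p = 0.00421), −1.87 for G0s2 (SE 0.31, adjusted p = 0.00688) and −0.82 for Abhd5 (SE 0.21, adjusted p = 0.0314). Plin4 fell (−1.43, adjusted p = 0.0371) and Plin2 rose (0.48, adjusted p = 0.0407), so that 5 of 9 members were called, against 17.4% of 12966 genes. Plin2 was 73.0, 92.5, 86.8 and 96.5 RPKM in controls and 97.3, 125, 150 and 118 in L-IRSdKO mice, just apart. Abhd5 was 32.9, 19.9, 32.6 and 26.3 in controls and 21.6, 15.4, 14.5 and 11.3 in L-IRSdKO mice, overlapping through L-IRSdKO replicate 1. Leaving out 1 mouse ended the call of Plin2 and Plin4 for 7 of the 8 mice and that of Abhd5 for 6.

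L-IRSdKO replicate 1 lay nearer to the controls than its 3 companions in G0s2, Pnpla2, Plin4, Mgll, Abhd5 and Plin2. In Plin4 it measured 20.8 RPKM, against 5.51, 5.06 and 6.30 in the others and 25.7, 25.1, 21.0 and 17.4 in controls. In Plin5 it was the highest of all 8 mice at 171, against 110, 116 and 106. Its Irs1 level of 0.149 was the lowest of the group, and it held 11.8 RPKM of 4 exocrine pancreas genes, against at most 1.27 in the other 7 libraries of the experiment. Without it 7 members, and 23.3% of all genes, were called by limma, with G0s2 at −2.21, Pnpla2 at 1.52, Plin4 at −1.88, Abhd5 at −0.98, Plin2 at 0.58, Mgll at −0.70 (adjusted p = 0.00275) and Plin5 at −0.32 (adjusted p = 0.0208). The summed Kupffer cell and macrophage genes were 163 to 299 RPKM in controls and 280 to 351 in L-IRSdKO mice, and their part in these results was not tested.

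In lean mice of the diet experiment the meal raised Abhd5 and lowered Pnpla2. Abhd5 was 8.80, 7.65 and 7.21 RPKM unfed and 11.9, 12.9 and 12.0 fed. Pnpla2 was 56.9, 46.6 and 58.5 unfed and 31.0, 30.0 and 39.1 fed. Both genes were without overlap between unfed and fed.

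Their log2 fold changes were 0.61 (SE 0.12, limma adjusted p = 0.00522) and −0.69 (SE 0.13, adjusted p = 0.005), and these 2 of 9 members were called at 0.01, against 10.2% of 11434 genes. Both calls were close to the threshold, with Abhd5 lost under median-ratio scaling (adjusted p = 0.0101), both lost without the filter on low values (adjusted p = 0.0104 each), and no more than 1 left with any mouse left out. The 5 endothelial genes (Stab2, Lyve1, Kdr, Pecam1, Clec4g) summed to 54.3 to 65.6 RPKM in lean unfed, 39.3 to 46.3 in lean fed, 30.9 to 39.3 in obese unfed and 38.4 to 40.8 in obese fed mice, and their part in the diet results was not tested. Plin4 was 3.42, 7.32 and 4.08 unfed and 2.02, 1.27 and 1.22 fed, apart, but its fold change of −1.40 (SE 0.79) did not pass. G0s2 was 119, 78.2 and 72.2 unfed and 170, 119 and 281 fed, just apart (1.02, SE 0.71, adjusted p = 0.328).

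In obese mice no member was called between fed and unfed, where 1.22% of genes were, with 6 of 9 members at an unadjusted p under 0.05 by limma, as were 25.2% of all genes. Pnpla2 was 36.4, 34.7 and 34.9 RPKM unfed and 28.4, 20.7 and 23.2 fed, without overlap (−0.55, SE 0.13, adjusted p = 0.0325). Plin5 was 6.79, 24.8 and 23.0 unfed and 40.7, 35.0 and 38.0 fed, also without overlap (1.23, SE 0.38, adjusted p = 0.068). The meal effects of obese and lean mice did not differ by the interaction test for any member, where 0.131% of genes were called and 2 members (Plin5 and Lipe) were at an unadjusted p under 0.05, as were 15% of all genes. The Plin5 interaction was 1.61 (SE 0.53, adjusted p = 0.197) and that of Lipe −0.93 (SE 0.32, adjusted p = 0.211).

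Between obese and lean unfed mice no member was called, against 0.77% of genes, with 3 at an unadjusted p under 0.05 by limma, as were 22.9% of all genes. Plin5 was 55.2, 54.4 and 39.1 RPKM in lean unfed mice, above the obese unfed mice (−1.60, SE 0.38, adjusted p = 0.0363). Pnpla2 was likewise apart (−0.60, SE 0.13, adjusted p = 0.0312). Unfed obese replicate 1 was the lowest of its group in 8 members, with G0s2 at 21.8 against 174 and 246, Plin2 at 73.8 against 223 and 185, and Plin4 at 0.501 against 16.1 and 2.60. Without it Plin2 (1.04, adjusted p = 0.000531) and Plin5 (−1.02, adjusted p = 0.00516) were called, where 3.12% of all genes were. The obese meal value of Plin2 then turned from 0.36 to −0.12 and that of Plin4 from 0.47 to −0.47, and that of Plin5 went from 1.23 to 0.65, none past the test, and the Plin5 interaction from 1.61 to 1.03. Without replicate 2 instead, the meal values were 0.67 for Plin2, 1.55 for Plin4 and 1.55 for Plin5, and Plin4 between obese and lean unfed mice was −1.56, against −0.48 with all mice, none past the test.

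In fed mice Plin2 was 178, 200 and 181 RPKM in obese and 103, 107 and 106 in lean animals, without overlap. Its log2 fold change was 0.82 (SE 0.30, limma adjusted p = 0.176) in the fit of all 4 groups. In the limma fit of the fed mice alone the adjusted p was 0.00289. No gene was called between obese and lean fed mice (0% of 11434, with 2284 at an unadjusted p under 0.05 and 2 of them members, Plin2 and Pnpla2). The 5 adipocyte genes (Adipoq, Retn, Cfd, Lep, Plin1) summed to 27.6 RPKM in unfed obese replicate 2, nearly all Cfd at 27.5, which was also the highest obese mouse in Plin4 and Lipe, and to 5.39 in fed obese replicate 3. They summed to at most 1.07 in the other libraries of the experiment, Plin1 was listed at 0 in all 6 obese libraries, and the part of such RNA in the results was not tested.

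**Figure D4:**
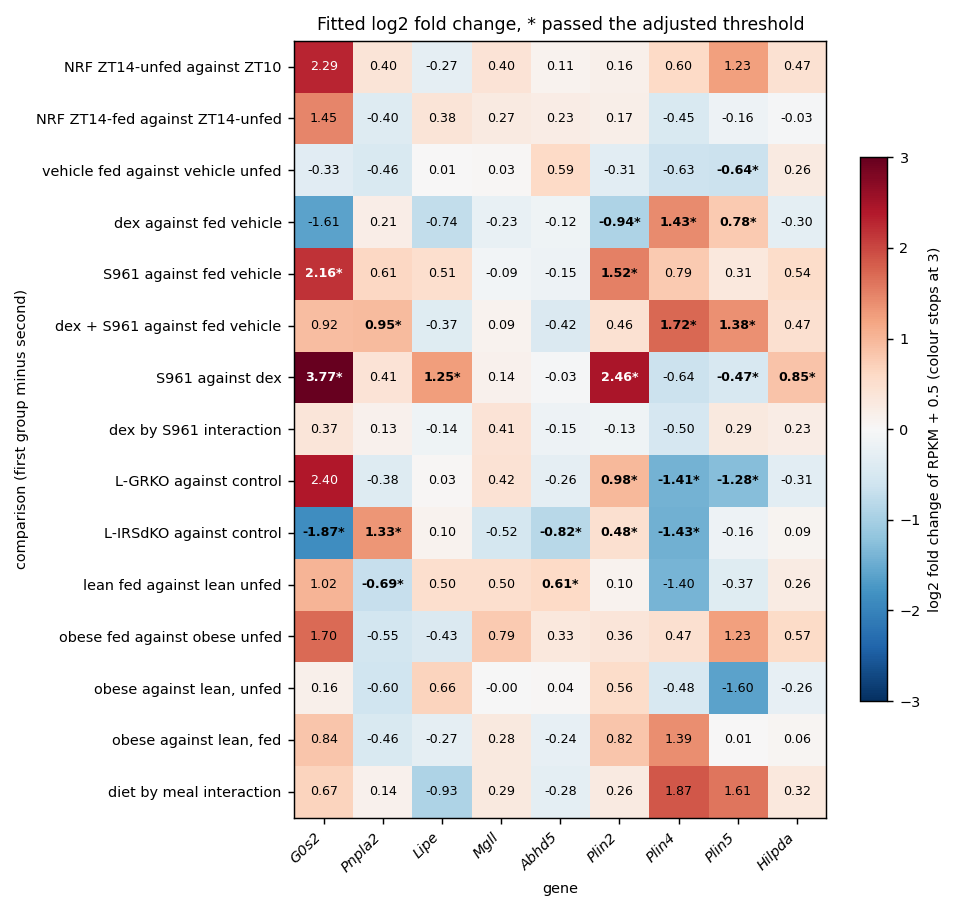
Log2 fold change of the 9 tested members (x axis) in the 15 comparisons (y axis), coloured by sign and size, with an asterisk where limma called the gene at the threshold of its experiment. Asterisks mark 24 of 135 squares, in 8 of the 15 comparisons, and none for Mgll. The share of all genes called ran from 0 to 17.4% between the comparisons.

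Across the 15 comparisons Plin2 and Plin5 were called in 5 each, Plin4 in 4, G0s2 and Pnpla2 in 3, Abhd5 in 2, and Lipe and Hilpda in 1. In the comparisons with a member called, the share of all genes called ran from 1.9% with S961 to 17.4% in L-IRSdKO mice. Plin4 and Plin5 were higher with dex and with dex and S961, and lower in L-GRKO mice, where G0s2 and Plin2 stood at higher values. The L-IRSdKO mice, also treated with dex, had lower Plin4 and G0s2 and higher Pnpla2 and Plin2 than their controls. Mgll, whose exons share bases with Gm16628 on the opposite strand, ranged from 54.1 to 85.2 RPKM over the 20 injected mice.

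The other droplet proteins (13 listed, 11 or 12 tested) had 5 of 11 called in L-IRSdKO mice, 3 for S961 against dex and 2 each with both agents and in L-GRKO mice, where 17.4%, 7.47%, 10.6% and 6.68% of all genes were called. In the injected mice Cidec, which joins droplets, rose with S961 (1.35, limma adjusted p = 0.0021) and with both agents (1.39, adjusted p = 0.000374), and was higher with S961 than with dex (1.64, adjusted p = 5.65e-05). Fitm2, which takes part in droplet budding, rose with both agents (0.55, adjusted p = 0.0316) and in L-IRSdKO mice (0.60, adjusted p = 0.0386). Hsd17b11 and the droplet hydrolase Ldah rose in L-GRKO mice (0.59 and 0.49), while in L-IRSdKO mice Hsd17b11 rose (0.55) and Ldah fell (−0.56). In all 2 rose and 3 fell there, none was called in the NRF and diet experiments, and the median of the tested list stayed within −0.20 and 0.31 in every comparison.

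Of the other lipases (20 listed, 18 tested) 4 rose in L-GRKO mice, and 4 rose and 6 fell in L-IRSdKO mice, where 6.68% and 17.4% of all genes were called, and the list's medians were 0.24 and −0.19 beside 0.08 and 0.03 for all genes. The carboxylesterases Ces1f and Ces1g rose in L-GRKO mice (0.64 and 1.09, limma adjusted p = 0.00686 and 0.00649) and fell in L-IRSdKO mice (−1.63 and −0.99, adjusted p = 0.0201 and 0.0143). Ddhd2, a triglyceride and phospholipid hydrolase, rose with S961 (0.91, adjusted p = 0.0104) and in L-IRSdKO mice (0.80, adjusted p = 0.00583). Lipg, the endothelial lipase, fell with the meal in lean mice (−1.51, adjusted p = 0.000366) and was lower in obese than lean unfed mice (−1.44, adjusted p = 0.00271). Its meal effect differed between diets (interaction 2.01, adjusted p = 0.00762). The endothelial marker sum given above for the diet groups was also highest in the lean unfed mice.

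The likeness of each member's pattern to that of 10521 other genes was read from the Pearson r over the 16 group means, each experiment centred on its own mean. The groups of an experiment share their libraries' preparation and some share controls, so r is given as a description. The genes nearest to each member were Gfod2 for G0s2 (0.91), Smim13 for Pnpla2 (0.95), Pllp for Mgll (0.94), Ahcyl2 for Abhd5 (0.95), Elmod3 for Plin2 (0.93), Asic5 for Plin4 (0.90), Sec14l4 for Plin5 (0.92) and Epha2 for Hilpda (0.92). For Lipe it was 4732471J01Rik (0.96), a gene on the opposite strand whose exons share bases with Lipe, and without strand their reads cannot be told apart. For Plin2 the second was Slc25a20 (0.91), the mitochondrial carnitine carrier, and the second genes of other members are not named here. Each first r is the highest among 10521 genes. Pnpla3, below the minimum level, still reached 0.88 with Mrpl43. Among the members themselves r was highest for G0s2 with Mgll (0.79), G0s2 with Plin2 (0.71) and Lipe with Plin2 (0.70), and it was −0.68 for Pnpla2 with Abhd5.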

How the data were processed

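The study measured liver RNA (54 libraries) and GR, FOXO1 and DNase profiles of mice. Per the labels and the study's methods, the authors aligned reads with STAR to mm9 and deposited RPKM, in which read numbers are divided by gene length and by depth, per RefSeq ID. The RNA counting tool and its strand setting are not given in the sources used here. The NRF libraries were ribosome-depleted total RNA and the others poly(A) RNA. The peak lists were called with HOMER. GR and FOXO1 peaks came from replicate samples against input, and those that overlapped between replicates were kept. The DHSs were called from fed and unfed reads together, with nuclei from pooled liver tissue of several mice. Only the peak positions were used.

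Of 35707 IDs, 35407 had a symbol (24312 symbols). Genes averaging 0.5 RPKM or more over an experiment's libraries were tested on log2(RPKM + 0.5) with limma 3.58.1 (R 4.3.3; empirical Bayes with a trend), 1 fit per experiment, with Benjamini-Hochberg adjustment over all tested genes. Calls were at an adjusted p under 0.01 (NRF, diet) or 0.05 (other experiments). Groups came from the labels. Read numbers were at hand only for the L-IRSdKO and diet libraries and most L-GRKO libraries, and the number of mice limits the precision. Gene starts were GENCODE M1 5′ ends in place of the planned RefSeq positions, and peaks within 50 kb were assigned. Members and gene lists were chosen with earlier results of these data known. The genes named are all members, and from the other lists those called that are described by role. Tables were made with Python 3.11.15, pandas 2.3.3 and pysam 0.24.0, and the fits were checked on simulated data. Alternatives covered the pseudocount, filter, scaling, trend, threshold, compared groups alone, replicate block, library series and each mouse left out.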

Additional observations from a re-analysis of the deposited data

Results flagged for a closer look

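In 9 of 90 sets of 4 mice and 1 member, the highest or lowest mouse stood far from the other 3, where chance gives about 1 in 20. L-IRSdKO replicate 1 was such a mouse for 4 members, G0s2 (42.2 RPKM against 15.2 to 18.0), Pnpla2 (76.6 against 125 to 135), Plin4 (20.8 against 5.06 to 6.30) and Plin5 (171 against 106 to 116). Pnpla3 was listed at 0 in L-IRSdKO replicate 3, against 0.352 to 0.407, and reached 0.476 in L-GRKO replicate 4, against 0.114 to 0.124. G0s2 was 63.5 in dex replicate 4, against 10.3 to 16.2. Lipe was 4.60 in the fourth mouse given dex and S961, against 3.20 to 3.30. Plin2 was 158 in GFP control replicate 1, against 80.6 to 91.4.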

How the results depend on the processing

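No member's call turned its direction under any alternative, and the pseudocounts, all IDs in place of 1 per symbol, and a minimum of 2 RPKM ended none of those still tested. At the other of both thresholds (0.01 or 0.05) the members called were 2 from ZT10 to ZT14 unfed, 2 with dex, 1 with S961, 3 for S961 against dex, 1 in L-GRKO and 2 in L-IRSdKO mice, 1 for the obese meal and 2 for obese against lean unfed mice. Without a filter on low values they were 1 with S961, 4 for S961 against dex, 1 in L-GRKO mice, 3 in L-IRSdKO mice and 0 for the lean meal. In fits of the compared groups alone they were 1 with S961, 3 for S961 against dex and 1 for obese against lean fed mice. With no variance trend 3 were called in L-IRSdKO and 2 in L-GRKO mice, and with median-ratio scaling or quantile normalization 1 for the lean meal. The shares of all genes called under these settings are not given here, so these counts are not set against all genes. A term for the library series, or replicates 1 to 3 alone, gave 3 for the vehicle meal (Abhd5 and Plin5 with Plin4 or with Pnpla2), 5 for dex, 3 with S961 (G0s2 and Plin2 with Plin4 or with Lipe) and 4 with both agents. For S961 against dex they gave 6 and 5. In the same order of comparisons, 9.21%, 9.74%, 4.25%, 19.6% and 12.8% of all genes were called with the term. Within replicates 1 to 3 the shares were 6.38%, 7.28%, 1.98%, 11.6% and 10.2%. In the main fit they were 3.13%, 3.19%, 1.9%, 10.6% and 7.47%. The causes of these differences were not tested.

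With each mouse left out in turn, the members called ranged from 0 to 1 from ZT10 to ZT14 unfed and for the lean meal, 1 to 1 for the vehicle meal, 2 to 5 with dex, 1 to 4 with S961, 3 to 3 with both, 4 to 5 for S961 against dex, 1 to 4 in L-GRKO and 2 to 7 in L-IRSdKO mice, 0 to 2 for obese against lean unfed mice, and 0 to 0 in the other comparisons. The share of all genes called moved as well, in L-IRSdKO mice from 17.4% to 23.3% without L-IRSdKO replicate 1. In L-GRKO mice it went from 6.68% to 4.83% without GFP control replicate 1. Shares for most other left-out mice are not given here.

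With the replicate number as a block, 2 members were called for the vehicle meal, 5 with dex, 3 with S961, 3 with both, 6 for S961 against dex, 3 in L-GRKO mice, 5 in L-IRSdKO mice, 2 for the lean meal and 0 elsewhere. The shares of all genes called with the block are not given here, so these counts too are not set against all genes. Same-numbered mice deviated together in 27 of 40 pairs of injected groups (r over 0.1). The counts elsewhere were 0 of 6 NRF, 1 of 4 L-GRKO, 0 of 4 L-IRSdKO and 3 of 18 diet pairs. Mice that correlated best with their own number were 12 of 20 injected, 4 of 6 NRF, 3 of 8 L-GRKO, 2 of 8 L-IRSdKO and 4 of 12 diet mice. Since pairing was to be taken only where all pairs of an experiment passed, the numbers were not taken to pair the mice in any of them, although in the injected mice same-numbered pairs had a median r of 0.14 and other pairs one of −0.05.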
